A study of Prunus yedoensis with 90 samples.

Results

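Buds of the Yoshino cherry in June, July and August 2018 are described here across 3 sites in Japan, as 18 of the 90 RNA-seq libraries of the study. They were chosen by the tissue and date labels alone: every summer bud library was taken except the Fukuoka collection of 29 August, which gave 6 libraries per site from 2 trees, each sampled on 3 dates. Hokkaido (Sapporo), the northern site, was sampled on 4 June, 9 July and 13 August. Tsukuba, in the middle, was sampled on 6 June, 5 July and 7 August. Fukuoka, the southern site, was sampled on 7 June, 4 July and 1 August. The sites were thus sampled up to 3 days apart in June, 5 days apart in July and 12 days apart in August, so site and collection date cannot be told apart. All trees belong to the cultivar 'Somei-yoshino', which is propagated by grafting, and no treatment was applied. The labels name a tree for each replicate number, so the p-values measure the spread between 2 trees per site. In the fits by month, the 3 libraries of a tree were treated as independent.

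In cherries, the buds that open in spring are formed on the current year's shoots in the preceding summer. Flower primordia begin to develop inside the flower buds during that time, while bud growth is restrained by the rest of the shoot. True dormancy, which is released by winter cold, sets in later in the year. The labels do not say whether a sampled bud was a flower bud or a leaf bud.

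The authors' values are TPM (a level corrected for gene length and set to one common total per library), so the sequencing depth is unknown. Between 37353 and 39358 genes exceeded 1 TPM in a summer bud library, and the 100 most abundant genes held 13.1% to 17.8% of the total. The median log2(TPM + 1) of the tested genes was 3.17 to 3.28 in Hokkaido libraries, 3.08 to 3.21 in Tsukuba libraries and 2.98 to 3.25 in Fukuoka libraries. Across genes, which are not independent replicates, Pearson's r was 0.824 to 0.982 between pairs of summer bud libraries and 0.521 to 0.85 between a bud and a leaf library of the same trees and dates. The files pair none of the 95076 IDs with a gene name, so markers of bud, flower or leaf could not be read and genes are given by ID. A change in the level of a transcript in whole buds cannot be told apart from a change in the share of the cells that carry it.

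Each tree was represented by its mean log2(TPM + 1) over the 3 dates. Trees of one site lay close together: the mean absolute difference over genes between the pair of trees was 0.201 in Hokkaido, 0.207 in Tsukuba and 0.186 in Fukuoka. Between sites it was 0.373 to 0.437 for Hokkaido against Fukuoka, 0.285 to 0.364 for Tsukuba against Fukuoka and 0.358 to 0.373 for Hokkaido against Tsukuba. Every pair of trees from different sites was therefore farther apart than any pair from one site.

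Hokkaido and Fukuoka buds, from the northern and the southern end of the range sampled, differed in both directions. Of 39360 genes tested, 2364 (6.01%) were called, which required an adjusted p under 0.05 by limma and a difference of at least 1 on the log2(TPM + 1) scale. Of these, 997 (2.53% of genes tested) were higher and 1367 (3.47%) lower in Hokkaido buds, and 329 differed by at least 2. The median of all tested genes was 0.13 higher in Hokkaido. When the library medians were made equal, the calls split into 655 higher and 1587 lower, and by adjusted p alone into 7163 higher and 3235 lower, so the split between the directions turned with the minimum difference. Among called genes, 1604 (67.9%) had all Hokkaido libraries on one side of all Fukuoka libraries on each of the 3 dates, as had 7695 (19.6%) of all genes tested. The count was the largest of the 3 site comparisons, except without Fukuoka replicate 1 (996, against 1936 for Hokkaido against Tsukuba) and without July (1904, against 2227).

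The genes named in each comparison had the largest differences among called genes with a mean of at least 5 TPM whose libraries did not overlap on any of the 3 dates. CYE_r3.1SPE8_g024600.1 had 1616, 623 and 15.1 TPM in June, July and August in Hokkaido replicate 1 and 559.6, 359.7 and 22.2 TPM in Hokkaido replicate 2. In Fukuoka it had 60.9, 33.5 and 3.26 TPM in replicate 1 and 24.4, 5.44 and 3.7 TPM in replicate 2. Hokkaido lay above Fukuoka on each date, and both sites had their lowest values in August. The difference between the sites was 3.90 (SE 0.45, limma adjusted p = 0.00504). Tsukuba, at 139, 5.82 and 2.27 TPM in replicate 1 and 168, 27.2 and 3.08 TPM in replicate 2, lay between the sites in June and among the Fukuoka values or below them later.

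CYE_r3.1SPA4_g020690.1 had 77.3, 106 and 0.424 TPM in Hokkaido replicate 1 and 75.7, 74.8 and 1.71 TPM in Hokkaido replicate 2. Its Fukuoka values were 6.18, 0.927 and 0 TPM in replicate 1 and 1.48, 0.271 and 0 TPM in replicate 2, so that the August values were low at both sites. The difference was 3.67 (SE 0.24, limma adjusted p = 0.0015).

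The pair of genes named as lower in Hokkaido ran the other way through summer. CYE_r3.1SPE2_g034740.1 had 2.14, 1.64 and 71 TPM in Hokkaido replicate 1 and 2.5, 1.92 and 9.96 TPM in Hokkaido replicate 2. In Fukuoka it had 21.8, 139 and 675 TPM in replicate 1 and 13.3, 137 and 626 TPM in replicate 2. Both Fukuoka trees were above 100 TPM in July and August, and no Hokkaido library was in any month from June to March. After August the highest Hokkaido library had 46.6 TPM, in February. The difference was -4.21 (SE 0.27, limma adjusted p = 0.00144). CYE_r3.1SPA7_g027680.1 had 3.95, 0.727 and 45.4 TPM in Hokkaido replicate 1 and 4.17, 1.88 and 13.8 TPM in Hokkaido replicate 2, against 33.9, 139.7 and 347 TPM in Fukuoka replicate 1 and 22.1, 106 and 341 TPM in Fukuoka replicate 2. The difference was -4.00 (SE 0.17, limma adjusted p = 0.000731). Its level followed that of CYE_r3.1SPE7_g020880.1 with r = 0.992 over the libraries at a nearly equal mean, so reads may be split between these IDs and its level is uncertain.

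**Figure D1:**
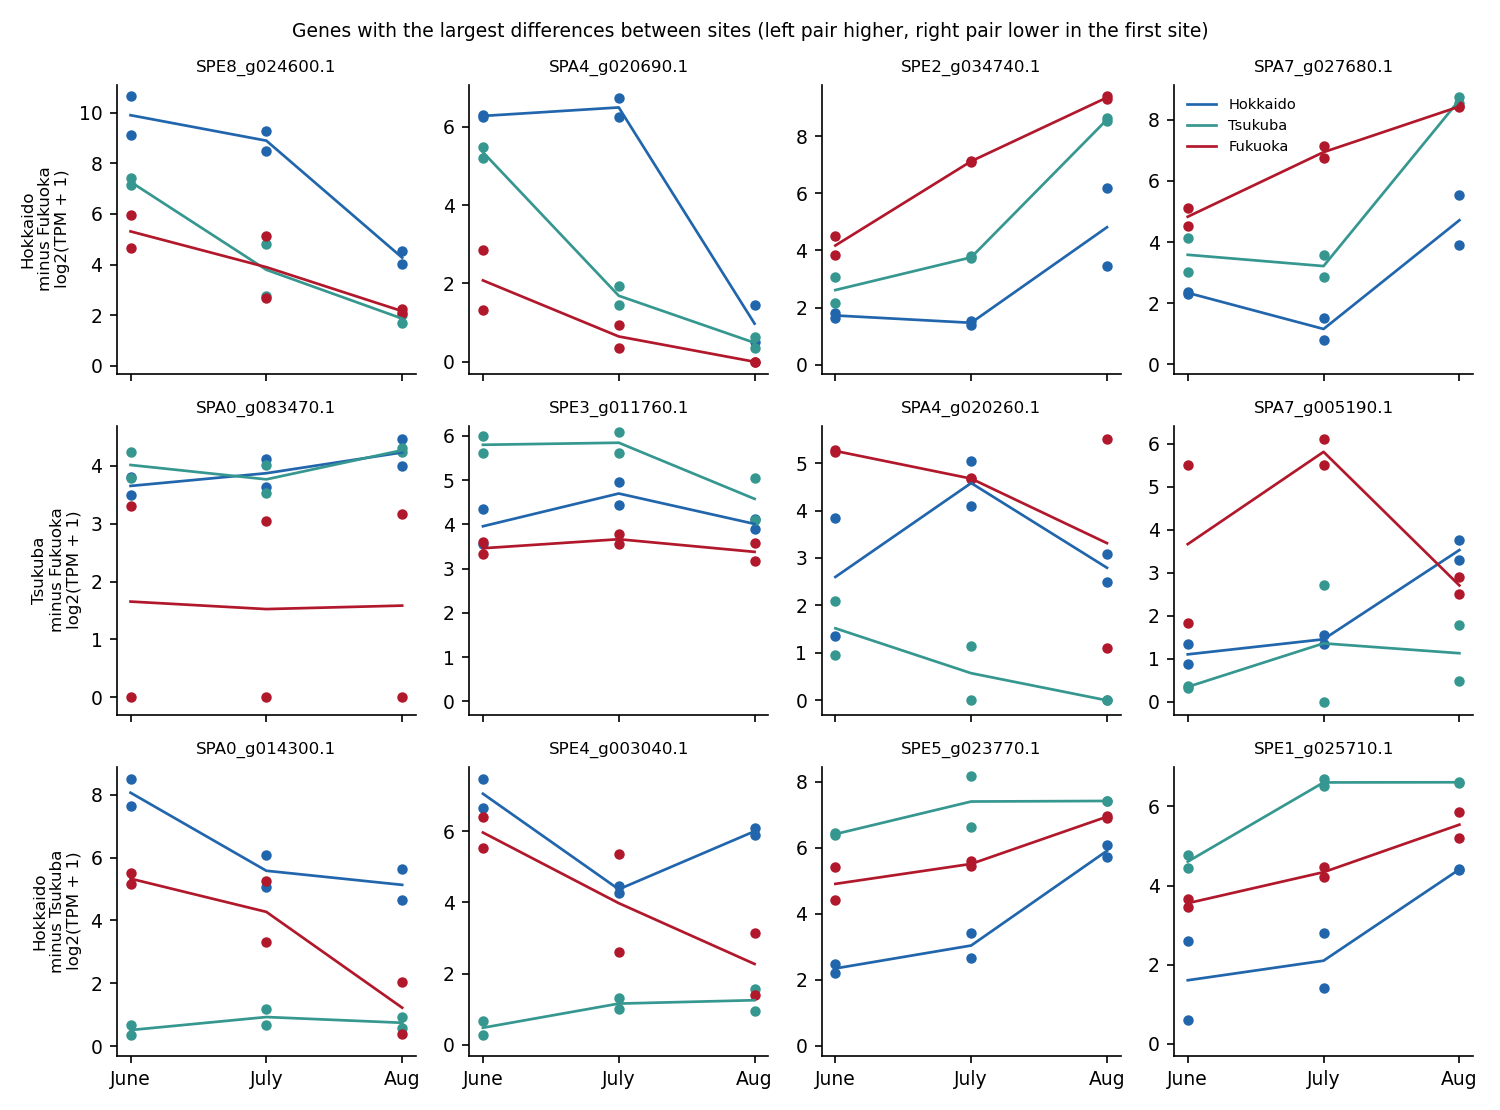
Levels of the 12 genes named in the 3 site comparisons, as log2(TPM + 1) (vertical) by month (horizontal); points are libraries, lines are means of 2 trees, and each row is 1 comparison. In the top row the Hokkaido and Fukuoka points do not overlap on any date, and the Tsukuba line of the right pair climbs to the Fukuoka level or near it by August.

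Tsukuba buds differed from Fukuoka buds in fewer genes, and most of these were lower in Tsukuba. Of 39360 genes, 957 (2.43%) were called, 205 (0.521%) higher and 752 (1.91%) lower in Tsukuba buds, and 126 differed by at least 2. By adjusted p alone, 2503 genes passed, 1135 higher and 1368 lower. The 2 groups of libraries did not overlap on any date for 562 (58.7%) of the called genes and 5153 (13.1%) of all genes. The count rested on single trees: it was 11 without Fukuoka replicate 1, 0 without Fukuoka replicate 2, 8 when Tsukuba replicate 1 was left out and 1596 when Tsukuba replicate 2 was, and for the 0 calls 19.9% of the genes tested had an unadjusted limma p under 0.05. It also moved with the dates, to 227 without June, 165 without July and 1914 without August.

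CYE_r3.1SPE3_g011760.1 had 47.7, 66.9 and 32 TPM in Tsukuba replicate 1 and 62.4, 47.5 and 16.2 TPM in Tsukuba replicate 2, against 8.99, 10.7 and 10.9 TPM in Fukuoka replicate 1 and 11.1, 12.7 and 8.07 TPM in Fukuoka replicate 2. Tsukuba was above Fukuoka in all libraries, with the smallest gap in August. The difference was 1.91 (SE 0.20, limma adjusted p = 0.0158). The other gene named as higher, CYE_r3.1SPA0_g083470.1, had 10.5 to 18.8 TPM in the 6 Tsukuba libraries. In Fukuoka it was listed at 0 in July and August in replicate 1 and in June in replicate 2, and at 7.27 to 8.9 TPM in the other 3 libraries. Its difference was 2.43 (SE 0.30, limma adjusted p = 0.021). Hokkaido was near Tsukuba for this gene, at 10.3 to 21.2 TPM, with a difference of -0.10 between them (SE 0.30, limma adjusted p = 0.855). It was also called higher in Hokkaido than in Fukuoka, by 2.33 (SE 0.30, limma adjusted p = 0.00614).

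CYE_r3.1SPA4_g020260.1, which was lower in Tsukuba, had 0.936, 0 and 0 TPM in Tsukuba replicate 1 and 3.24, 1.21 and 0 TPM in Tsukuba replicate 2. In Fukuoka it had 38, 24.3 and 1.16 TPM in replicate 1 and 36.4, 24.7 and 44.7 TPM in replicate 2, so that the Fukuoka trees differed widely in August. The difference was -3.72 (SE 0.60, limma adjusted p = 0.0284). CYE_r3.1SPA7_g005190.1 had 0 to 5.55 TPM in the 6 Tsukuba libraries and 2.53 to 68.2 TPM in the 6 Fukuoka libraries, which overlapped between dates but not within one. The difference was -3.12 (SE 0.58, limma adjusted p = 0.0367), and the call was lost with the replicate number as a block (adjusted p = 0.0551). This gene was also called lower in Hokkaido than in Fukuoka, by a difference of -2.03 (SE 0.58, limma adjusted p = 0.0444).

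Between Hokkaido and Tsukuba buds, more of the called genes were higher in Hokkaido. Of 39360 genes, 2031 (5.16%) were called, 1222 (3.1%) higher and 809 (2.06%) lower in Hokkaido buds, and 302 differed by at least 2. With equal library medians, 990 were higher and 940 lower. The 2 groups of libraries did not overlap on any date for 1512 (74.4%) of the called genes and 5724 (14.5%) of all genes. This comparison shares the Hokkaido trees with the first and the Tsukuba trees with the second, so the 3 counts are not independent.

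The genes highest in Hokkaido relative to Tsukuba were low in all Tsukuba libraries. CYE_r3.1SPA0_g014300.1 had 198, 32.4 and 23.9 TPM in Hokkaido replicate 1 and 357, 67.4 and 48.3 TPM in Hokkaido replicate 2. The 6 Tsukuba libraries held 0.291 to 1.29 TPM. The difference was 5.53 (SE 0.31, limma adjusted p = 0.00142). In Fukuoka the gene was at 44.2, 36.8 and 0.322 TPM in replicate 1 and 34.7, 8.87 and 3.13 TPM in replicate 2. Tsukuba was thus the lowest of the 3 sites in June and July, and overlapped Fukuoka in August. CYE_r3.1SPE4_g003040.1 had 99.2, 18.2 and 58.4 TPM in Hokkaido replicate 1 and 174, 21.2 and 67.6 TPM in Hokkaido replicate 2. The 6 Tsukuba libraries held 0.225 to 1.96 TPM, a difference of 4.84 (SE 0.19, limma adjusted p = 0.001). Fukuoka was at 45.1, 40 and 1.65 TPM in replicate 1 and 83.1, 5.06 and 7.81 TPM in replicate 2, and overlapped Hokkaido in July. Tsukuba minus Fukuoka was -3.10 (SE 0.19, limma adjusted p = 0.00903) and Hokkaido minus Fukuoka 1.73 (SE 0.19, limma adjusted p = 0.00469).

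CYE_r3.1SPE5_g023770.1 had 3.58, 5.31 and 66.9 TPM in Hokkaido replicate 1 and 4.61, 9.66 and 51.8 TPM in Hokkaido replicate 2, against 81.6, 284 and 168 TPM in Tsukuba replicate 1 and 86.5, 98.6 and 171 TPM in Tsukuba replicate 2. Hokkaido was below Tsukuba on each date, with its highest values in August. The difference was -3.31 (SE 0.21, limma adjusted p = 0.00176). CYE_r3.1SPE1_g025710.1 had 0.519 to 20.4 TPM in the 6 Hokkaido libraries and 20.7 to 103 TPM in the 6 Tsukuba libraries, a difference of -3.23 (SE 0.33, limma adjusted p = 0.00375).

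The sites were also compared within each month, in a fit with 1 mean for each site and month. In June, 2769 genes (7.04%) were called between Hokkaido and Fukuoka, 1659 (4.21%) between Tsukuba and Fukuoka and 3241 (8.23%) between Hokkaido and Tsukuba. In July these counts were 4388 (11.1%), 2446 (6.21%) and 1792 (4.55%). In August they were 2809 (7.14%), 16 (0.0407%) and 2991 (7.6%). Tsukuba and Fukuoka buds, which differed in June and July, were thus separated by few called genes in August, when 4463 genes had an unadjusted limma p under 0.05. Hokkaido buds remained apart from both.

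Single trees moved several of these counts. Without Fukuoka replicate 1, June gave 459 genes for Hokkaido against Fukuoka and 176 for Tsukuba against Fukuoka, July gave 2713 and 330, and August gave 1568 for Hokkaido against Fukuoka. Without Fukuoka replicate 2, Tsukuba against Fukuoka gave 1016 in June, 1378 in July and 4 in August. Without Tsukuba replicate 1 it gave 722, 256 and 6, and Hokkaido against Tsukuba gave 2106 in June and 1944 in August. Without Tsukuba replicate 2, Tsukuba against Fukuoka gave 901, 4190 and 5. Without Hokkaido replicate 1, June gave 1281 for Hokkaido against Fukuoka and 2114 for Hokkaido against Tsukuba, July gave 1079 for Hokkaido against Tsukuba, and August gave 7 for Tsukuba against Fukuoka. Without Hokkaido replicate 2, August gave 1389 for Hokkaido against Fukuoka, 1561 for Hokkaido against Tsukuba and 8 for Tsukuba against Fukuoka.

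The split between directions within a month moved with the scaling. In July, 2591 genes were higher and 1797 lower in Hokkaido than in Fukuoka, and 1100 higher and 2315 lower once library medians were equal. In August, 1710 were higher and 1099 lower in Hokkaido than in Fukuoka, against 1248 and 1379 with equal medians. For Hokkaido against Tsukuba the calls were 1101 higher and 691 lower in July and 1797 and 1194 in August, and with equal medians 752 and 870 in July and 1283 and 1526 in August. For Tsukuba against Fukuoka in July they were 1257 higher and 1189 lower, and 822 and 1395 with equal medians.

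**Figure D2:**
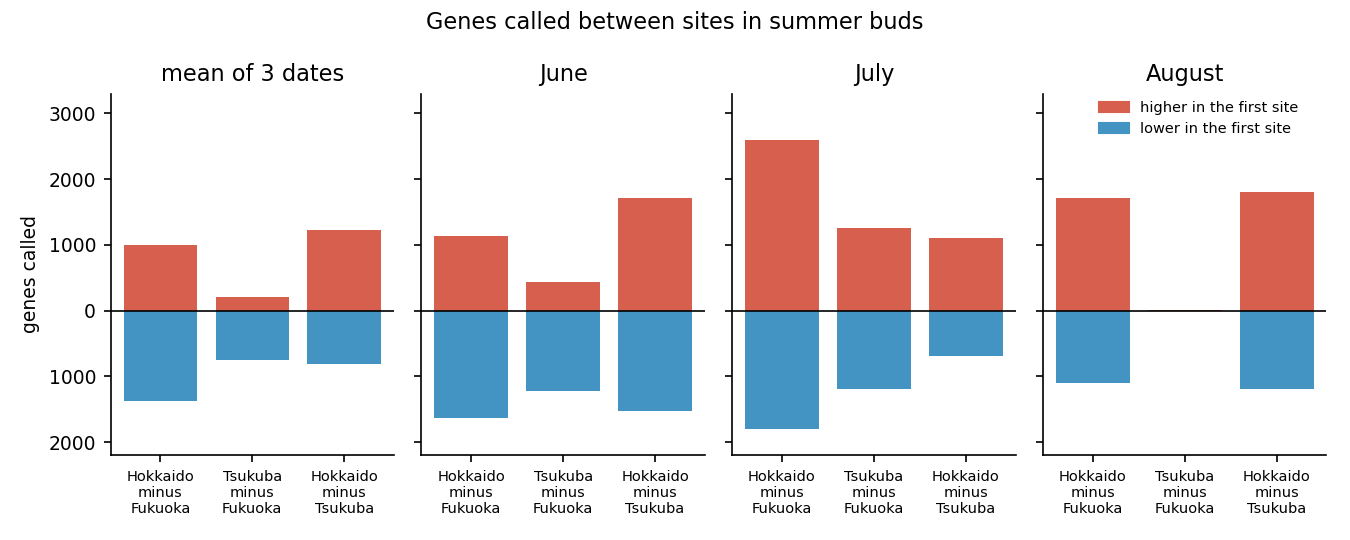
Number of genes called between sites (vertical; calls that were higher in the first site upward, lower downward) for the mean of the 3 dates and for each month; each bar is 1 comparison of 2 trees with 2 trees. The Tsukuba minus Fukuoka bar holds 1659 genes in June, 2446 in July and 16 in August.

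Many of the genes called between sites also changed from June to August at the site outside the comparison. From June to August, 1744 genes rose and 1840 fell in Hokkaido buds (9.11% called), 1935 rose and 2472 fell in Tsukuba buds (11.2%), and 1144 rose and 1892 fell in Fukuoka buds (7.71%). Of the 997 genes higher in Hokkaido than in Fukuoka, 584 (58.6%) fell from June to August in Tsukuba and 1 rose, with a median change of -1.30. Of the 1367 genes lower in Hokkaido than in Fukuoka, 966 (70.7%) rose in Tsukuba and 2 fell, with a median change of 1.69. Over all genes tested, 4.92% rose and 6.28% fell in Tsukuba, with a median change of -0.16. The Tsukuba libraries do not enter the difference between Hokkaido and Fukuoka, but share its estimate of the spread and the filter on mean TPM.

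For Hokkaido against Tsukuba the site outside was Fukuoka. Of the 1222 genes higher in Hokkaido, 631 (51.6%) fell in Fukuoka and 0 rose, and of the 809 lower in Hokkaido, 314 (38.8%) rose in Fukuoka and 5 fell, beside 2.91% rising and 4.81% falling over all genes. For Tsukuba against Fukuoka the site outside was Hokkaido. Of the 752 genes lower in Tsukuba, 240 (31.9%) rose in Hokkaido and 37 fell, while of the 205 higher, 35 rose and 34 fell, beside 4.43% rising and 4.67% falling over all genes. With equal library medians, 394 of 655 genes higher in Hokkaido than in Fukuoka fell in Tsukuba and 0 rose, and 1131 of 1587 genes lower in Hokkaido rose and 2 fell. The number of seasonal calls in Fukuoka was 1244 without Fukuoka replicate 1 and 1054 without Fukuoka replicate 2, and that in Hokkaido was 1131 without Hokkaido replicate 1. With equal library medians the seasonal calls themselves turned to 2349 rising and 1740 falling in Tsukuba, and to 1507 rising and 1343 falling in Fukuoka.

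Tsukuba lay between the other two sites, on the mean over summer, for 647 (64.9%) of the genes higher in Hokkaido than in Fukuoka and for 996 (72.9%) of those lower, against 44.8% of all genes tested. Fukuoka lay between for 994 (81.3%) of the genes higher in Hokkaido than in Tsukuba and for 558 (69%) of those lower. Its share over all genes was 30.3%. Hokkaido lay between for 128 (62.4%) of the genes higher in Tsukuba than in Fukuoka and for 364 (48.4%) of those lower. Here the share over all genes was 24.9%. The called genes were chosen for a large gap between the compared sites on these same means. The site left out then falls between them more often through that choice alone. The shares of all genes are thus no fair reference, and no site can be called intermediate from these values.

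The position of a bud library along the summer course was read as the mean log2(TPM + 1) of the genes that rose minus that of the genes that fell, using genes chosen at another site. On the genes chosen in Tsukuba, Hokkaido replicates 1 and 2 were at -0.94 and -1.05 in June, -1.20 and -0.99 in July, and 0.43 and 0.26 in August. Fukuoka replicates 1 and 2 were at 0.55 and -0.01 in June, 1.65 and 1.37 in July, and 2.14 and 1.93 in August. The August values of Hokkaido thus lay within the range of the June values of Fukuoka, although the Hokkaido buds were taken 12 days later in August than the Fukuoka buds.

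On the genes chosen in Fukuoka, Hokkaido was at -1.43 and -1.35 in June, -1.26 and -1.09 in July, and -0.02 and -0.39 in August. Tsukuba was at -0.38 and -0.43 in June, 0.50 and 0.40 in July, and 2.03 and 1.99 in August. Here the Hokkaido values of August lay among or above the Tsukuba values of June and below those of July.

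On the genes chosen in Hokkaido, Tsukuba was at 0.27 and 0.18 in June, 0.98 and 1.39 in July, and 1.57 and 1.76 in August. Fukuoka was at 0.90 and 0.60 in June, 1.52 and 1.49 in July, and 1.74 and 1.67 in August. Tsukuba lay below Fukuoka in June and July, and the sites overlapped in August.

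**Figure D3:**
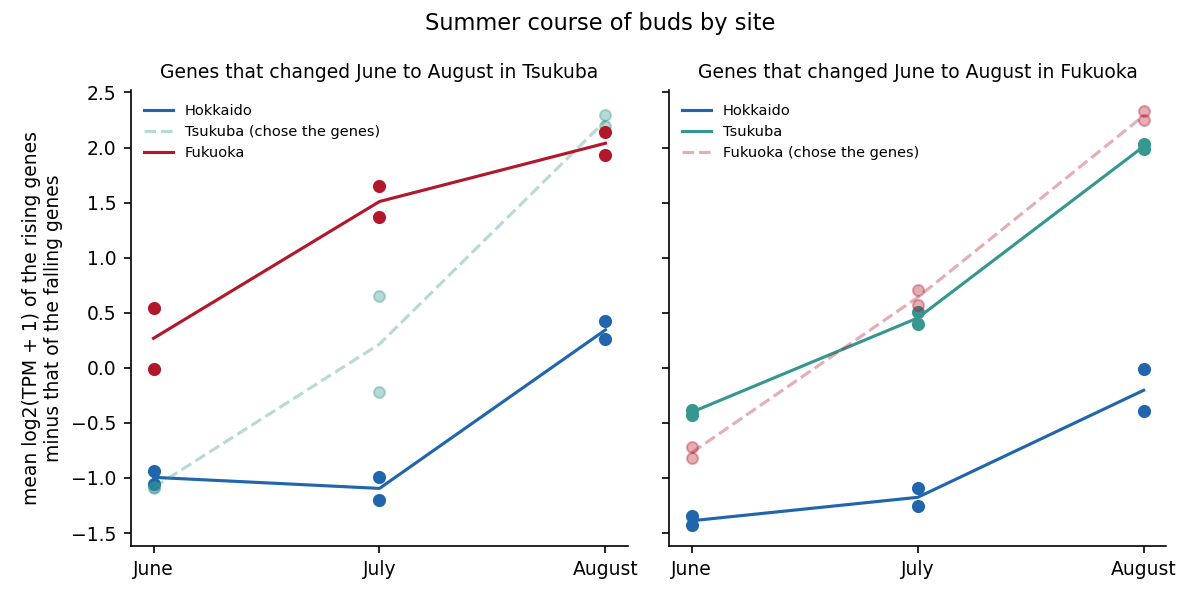
Mean log2(TPM + 1) of the genes that rose minus that of the genes that fell from June to August (vertical) by month (horizontal), for genes chosen in Tsukuba (left) and in Fukuoka (right); points are trees, lines are means of 2 trees, and the site that chose the genes is pale and dashed. Hokkaido ends August at 0.26 and 0.43 on the left and at -0.39 and -0.02 on the right, while the other site reaches at least 1.93 in both panels.

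The first principal component of the same 18 libraries held 42.2% of the variance and set June apart from August at each site. Unlike on the genes chosen in Tsukuba, both Hokkaido trees moved on it toward their August values between June and July. Hokkaido lay at 97.2 and 95.7 in June, 80.3 and 67.2 in July and -4.3 and 12.9 in August. Tsukuba lay at 46.1 and 47.9 in June, 7.3 and -24.4 in July and -78.7 and -84.1 in August. Fukuoka lay at -5.5 and 23.7 in June, -63.4 and -49.8 in July and -89.2 and -78.7 in August. Each site moved in the same direction on this component, and in August the Hokkaido trees lay on it near the Fukuoka trees of June. The second component (16.4%) set Tsukuba apart, at -64.4 and -58 in June and -80.8 and -25.6 in July. In those months Fukuoka lay at 30.1 to 51.5 and Hokkaido at -8.1 to 37.7. On it the Hokkaido trees of August (14.2 and 27.5) lay below the Fukuoka trees of June (44.1 and 30.1).

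Across genes, which are not independent replicates, Hokkaido buds of August had a mean r of 0.959 with Fukuoka buds of June, 0.942 with those of July and 0.919 with those of August. Hokkaido buds of July had a mean r of 0.957 with Tsukuba buds of June and 0.922 with Tsukuba buds of July. Tsukuba and Fukuoka buds of August had a mean r of 0.964. With Tsukuba buds, those of Hokkaido in August had a mean r of 0.927 for June, 0.934 for July and 0.914 for August. The ranges for July (0.914 to 0.951) and August (0.9 to 0.927) overlapped. By mean r, Hokkaido buds were therefore closer to earlier buds of the other site than to those of the same month in each of these pairs.

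**Figure D4:**
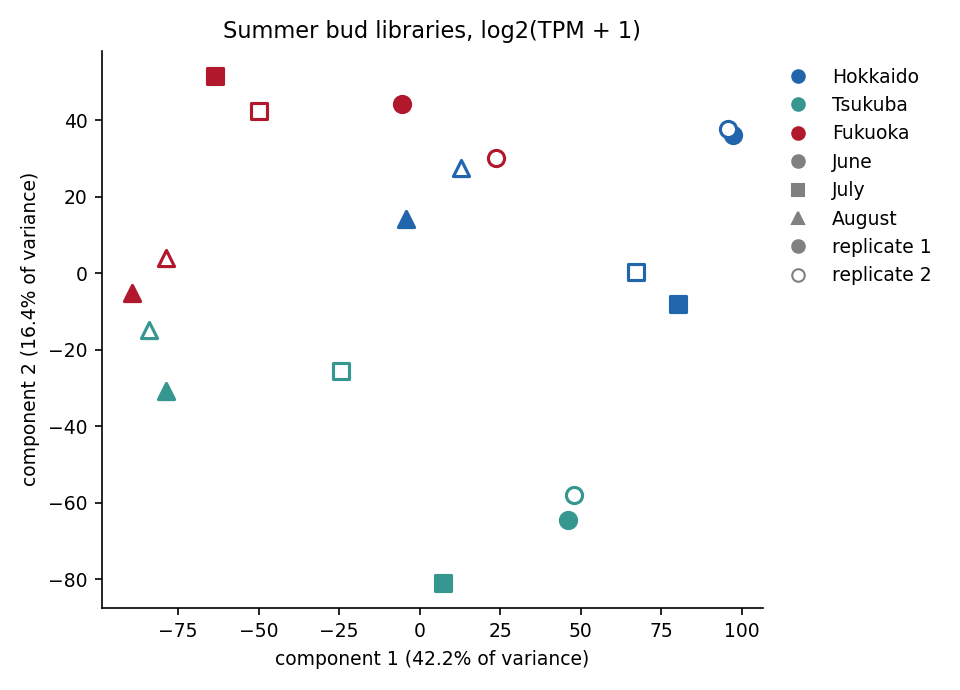
The first principal components of the 18 summer bud libraries on log2(TPM + 1); color gives the site, shape the month and filling the replicate. The June libraries of each site lie to the right of its August libraries. On component 1 the Hokkaido libraries of August (-4.3 and 12.9) lie near the Fukuoka libraries of June (-5.5 and 23.7). On component 2 they lie lower (14.2 and 27.5 against 44.1 and 30.1).

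The site differences themselves changed over the summer. The change from June to August within a tree differed between Hokkaido and Fukuoka in 2941 genes (7.47%), of which 1887 had the higher change in Hokkaido and 1054 the lower. It differed between Hokkaido and Tsukuba in 3434 genes (8.72%), 2138 higher and 1296 lower in Hokkaido. Between Tsukuba and Fukuoka it differed in 24 genes (0.061%), 21 higher and 3 lower in Tsukuba, while 6161 genes had an unadjusted limma p under 0.05. With equal library medians the split became 1298 higher and 1394 lower for Hokkaido against Fukuoka and 1366 higher and 1622 lower for Hokkaido against Tsukuba.

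Leaving out single trees moved these counts. For Hokkaido against Fukuoka, the count was 47 without Fukuoka replicate 1, 375 without Fukuoka replicate 2, 1009 and 1052 when Tsukuba replicate 1 and 2 were left out in turn, 771 without Hokkaido replicate 1 and 1280 without Hokkaido replicate 2. For Hokkaido against Tsukuba, it was 35 and 41 when Tsukuba replicate 1 and 2 were left out in turn, 769 without Hokkaido replicate 1 and 1935 without Hokkaido replicate 2. For Tsukuba against Fukuoka, it was 0 when Fukuoka replicate 1 or either Tsukuba tree was left out, with 4142, 4424 and 4158 genes at an unadjusted limma p under 0.05, and 2 without Fukuoka replicate 2. With the Fukuoka buds of 29 August in place of 1 August, it was 1046.

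Genes with the largest difference in change, chosen for Hokkaido against Tsukuba, moved in opposite directions or by very different amounts. CYE_r3.1SPE1_g040490.1 had 0.194, 6.08 and 15 TPM in June, July and August in Hokkaido replicate 1 and 0.94, 8.8 and 20.7 TPM in Hokkaido replicate 2. In Tsukuba it had 9.26, 4.08 and 1.67 TPM in replicate 1 and 9.74, 9.78 and 1.42 TPM in replicate 2. The June order of the sites was the reverse of the August order, and the changes differed by 5.66 (SE 0.26, limma adjusted p = 0.0041). On the mean over summer the gene differed by 0.09 between Hokkaido and Tsukuba (SE 0.21, limma adjusted p = 0.812), so that the 3 dates cancelled. CYE_r3.1SPA1_g039870.1 had 1.18 and 6.2 TPM in the Hokkaido buds of June and 154 and 163 TPM in those of August, against 35.4 to 63.6 TPM in the 6 Tsukuba libraries, and the changes differed by 5.60 (SE 0.54, limma adjusted p = 0.0102).

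CYE_r3.1SPE2_g027840.1 had 41.4, 0.276 and 449.7 TPM in Hokkaido replicate 1 and 6.81, 4.58 and 68.5 TPM in Hokkaido replicate 2. In Tsukuba it had 4.04, 80.8 and 4696 TPM in replicate 1 and 1.33, 109.6 and 5052 TPM in replicate 2, and in Fukuoka it had 5670.1 TPM in replicate 1 and 6659 TPM in replicate 2 in August. In August every Tsukuba and Fukuoka library thus lay above both Hokkaido libraries. The change differed by -7.19 between Hokkaido and Tsukuba (SE 0.47, limma adjusted p = 0.00566). CYE_r3.1SPA2_g034430.1 differed by -7.08 (SE 0.57, limma adjusted p = 0.00723), and its level followed that of CYE_r3.1SPE2_g027840.1 with r = 0.995 at a similar mean, so reads may be split between these IDs and their levels are uncertain.

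Leaves of the same trees and dates gave libraries that the bud comparison did not use. On the mean over the 3 dates, 2200 of 35444 leaf genes (6.21%) were called between Hokkaido and Fukuoka, 308 (0.869%) between Tsukuba and Fukuoka and 2701 (7.62%) between Hokkaido and Tsukuba. Of the genes higher in Hokkaido than in Fukuoka buds, 733 were tested in leaves, where 177 (24.1%) were called higher and 11 lower. Of the genes lower in Hokkaido buds, 1037 were tested in leaves, where 511 (49.3%) were called lower and 7 higher. Over all genes tested in both tissues, 2.75% were called higher and 3.05% lower in Hokkaido leaves. The leaf count for Hokkaido against Fukuoka was 1036 without Fukuoka replicate 1 and 1160 without Fukuoka replicate 2. That for Tsukuba against Fukuoka was 0, 46, 195 and 1 without Fukuoka replicate 1, Fukuoka replicate 2, Tsukuba replicate 1 and Tsukuba replicate 2 in turn, and 594 without Hokkaido replicate 1. For the 0 calls, 4107 genes had an unadjusted limma p under 0.05.

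For Hokkaido against Tsukuba, 165 of 930 genes higher in buds (17.7%) were called higher in leaves and 45 (4.84%) lower. Of 416 genes lower in buds, 114 (27.4%) were called lower and 33 (7.93%) higher. Over all genes, 4.22% were called higher and 2.58% lower, so calls in the opposite direction also exceeded the share of all genes. For Tsukuba against Fukuoka, 57 of 605 genes lower in buds were called lower in leaves and 0 higher, and of 127 genes higher in buds 2 were called higher and 3 lower, beside 0.276% higher and 0.503% lower over all genes. CYE_r3.1SPE2_g034740.1 was lower in Hokkaido than in Fukuoka leaves too, at 0.637 to 14.4 TPM in the 6 Hokkaido libraries against 6.64 to 408 TPM in the 6 Fukuoka libraries. Its leaf difference was -3.78 (SE 0.40, limma adjusted p = 0.00184).

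The Hokkaido leaf libraries of June stood apart from the other leaves: replicate 1 had a median r of 0.73 with bud libraries and 0.711 with the other leaf libraries, and replicate 2 had 0.677 and 0.853. Every other leaf library had at least 0.924 with leaves. Without all June leaves, 17.4% of 597 genes higher in Hokkaido than in Fukuoka buds were called higher in leaves and 3.18% lower, and 491 of 1021 genes lower in Hokkaido buds (48.1%) were called lower and 8 higher, beside 1.8% higher and 3.4% lower over all genes tested in both tissues. For Hokkaido against Tsukuba, 92 of 871 genes higher in Hokkaido buds (10.6%) were called higher without June leaves and 28 (3.21%) lower. Of 367 genes lower in Hokkaido buds, 106 (28.9%) were called lower and 10 (2.72%) higher, beside 1.65% higher and 1.81% lower over all genes. Of the genes lower in Tsukuba than in Fukuoka buds, 17 of 605 (2.81%) were then called lower in leaves, beside 0.365% of all genes. CYE_r3.1SPE8_g024600.1 had 421 and 90.6 TPM in the Hokkaido leaves of June and 12.8 to 19.5 TPM in those of July and August, against 8.5 to 36.5 TPM in the 6 Fukuoka leaf libraries, so the Hokkaido leaves lay above the highest Fukuoka leaf library in June alone. Its leaf difference was 1.15 (SE 0.21, limma adjusted p = 0.0129).

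Later buds of the same trees showed whether the summer differences lasted. Genes higher in Hokkaido than in Fukuoka had a median difference of 0.59 in September, 0.25 in October and -0.50 in November, and those lower had -0.89, 0.30 and 0.09. All genes tested had 0.12, -0.01 and -0.19 in these months. September buds were taken on the 7th in Hokkaido, the 5th in Tsukuba and the 26th in Fukuoka, and October buds on the 11th, the 7th and the 24th. From December to March the medians for Hokkaido against Fukuoka lay between -0.40 and 0 for the genes higher and between -0.32 and -0.02 for the genes lower. For Tsukuba against Fukuoka the medians of both gene groups had changed sign by September, to -0.58 for the genes higher and 0.49 for those lower. All genes tested had a median of -0.22 in September and -0.34 in October for this pair of sites. The genes higher in Tsukuba had a median of 0.37 in December and of -0.08 to -0.44 from January to March, and the genes lower had 0.04 to 0.46 from October to March.

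Genes lower in Hokkaido than in Tsukuba had a negative median in each month from June to March, at -0.58 in September, -0.45 in November, -0.33 in January and -0.30 in March. The group was split: 357 (44.1%) were lower by at least 1 in September and 163 (20.1%) higher, and in October 331 (40.9%) and 172 (21.3%). The median of all genes tested was 0.33 in September and 0.31 in October. Of the 809 genes lower in Hokkaido in summer, 36 were lower by at least 1 in each of the 7 later months, as were 54 of all 39360 genes tested. Of the 1222 genes higher in Hokkaido than in Tsukuba, 0 were higher by at least 1 in all 7 months, as were 3 of all genes tested. For Hokkaido against Fukuoka, 1 of 997 genes was higher and 1 of 1367 was lower in all 7 months, as were 3 and 3 of all genes.

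**Figure D5:**
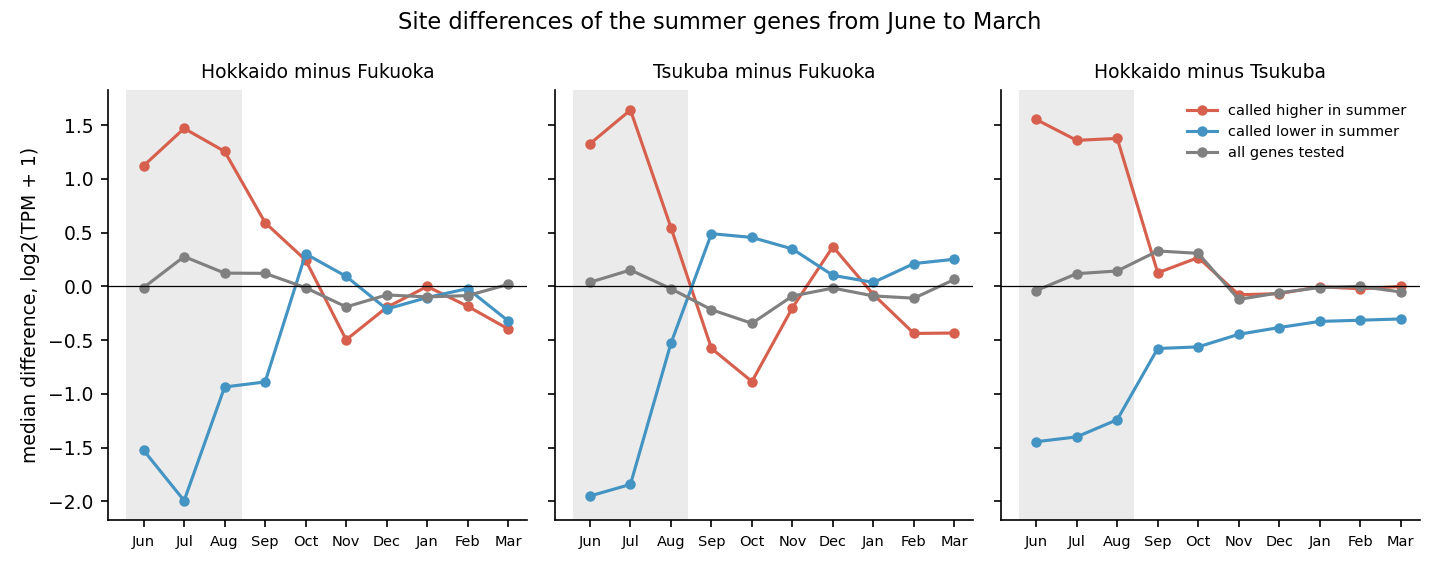
Median site difference in log2(TPM + 1) (vertical) of the genes called in summer, by month from June to March (horizontal); red lines are genes called higher, blue lines genes called lower and grey lines all genes tested, with the summer months shaded. In the right panel the genes lower in Hokkaido than in Tsukuba stay below 0, at -0.30 in March.

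The called genes were spread over the ID groups. Of the genes with SPA in the ID, 5.78% were called between Hokkaido and Fukuoka, as were 6.25% of those with SPE, letters that the sources used here do not explain. Called genes could stand next to one another in ID order. Among tested genes whose ID has a digit other than 0 after these letters, 161 of 958 lower in Hokkaido than in Fukuoka had a neighbouring ID called in the same direction (16.8%), against 6.85% of all tested genes, and 175 of 862 higher in Hokkaido than in Tsukuba had one (20.3%), against 6.17%. The longest runs of called genes, neighbours among the genes tested, held 5 genes. A run of this length, CYE_r3.1SPE8_g017040.1 to CYE_r3.1SPE8_g017120.1, had higher levels in Hokkaido than in Tsukuba. Another, CYE_r3.1SPA1_g034050.1 to CYE_r3.1SPA1_g034360.1, spanned 32 ID numbers, and its genes were lower in Hokkaido than in Fukuoka by differences of -1.18 to -1.81. In the CYE_r3.1SPA1 run, the 4 genes after the first averaged 3.92 to 4.4 TPM in Hokkaido, 14.2 to 16.1 TPM in Tsukuba and 13.4 to 15.6 TPM in Fukuoka, levels so alike that reads shared between copies may count in several of them. In each comparison, 0 genes were listed at 0 in all 6 libraries of one site and at 5 TPM or more in all 6 of the other.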

How the data were processed

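RNA-seq values of 18 summer bud libraries were analysed, with 18 leaf libraries of the same trees and dates and later bud libraries beside them. The authors deposited TPM values for 95076 gene IDs. Per the labels' protocols, tissue was cut around midday from the sun-exposed crown and kept in an RNA-stabilizing reagent, bud RNA was extracted with a plant RNA reagent and column cleanup, and sequencing gave paired reads, 151 bases each. Leaf RNA was extracted by another method. The same protocol text, given for bud libraries too, calls the sequenced RNA that of leaves, so tissue was read from the tissue label. Tools named in the submitters' processing notes, without their roles, are StringTie 1.3.5, fastp 0.20.0 and STAR 1.5.2. Not given in the sources used here are the genome build, the annotation and the handling of reads shared by near-identical copies. Each library sums to 1000000, so depth is unknown and no counting interval was given.

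Values were analysed here as log2(TPM + 1), a scale that understates the change of low genes, in R 4.3.3 by limma 3.58.1, with eBayes trend and robust off. Files were read with the package data.table, version 1.17.8, and plots drawn with matplotlib 3.10.9 in Python 3.11.15. Genes were tested where their TPM averaged 1 or more over the fitted libraries, with Benjamini-Hochberg adjustment over all of them, and called at an adjusted p under 0.05 and a difference of at least 1 (2-fold). The summer fit used 6 tree means, 2 per site, which left 3 residual degrees of freedom before limma's moderation. Months, and the genes that rose or fell from June to August within a site, were fitted with 9 means of site and month. That fit had no term for the tree, although the same trees were sampled on each date. With the tree as a fixed block, 3831 genes were called from June to August in Hokkaido, 4592 in Tsukuba and 3247 in Fukuoka. The difference between sites in the June to August change was fitted on 1 value per tree. Named for each comparison were 2 called genes of largest positive and 2 of largest negative difference at a mean of at least 5 TPM, whose libraries were apart on every date (for the change, with the same sign in every pair of trees). An ID was called close to another at r of at least 0.98 over the libraries and a ratio of means within 1.25 times. Past that ratio, CYE_r3.1SPE4_g003040.1 followed CYE_r3.1SPA4_g005580.1 (r = 0.99, ratio 0.616). Likewise, CYE_r3.1SPE2_g034740.1 followed CYE_r3.1SPA2_g041260.1 (r = 0.987, ratio 0.716), and CYE_r3.1SPA4_g020260.1 followed CYE_r3.1SPA4_g020270.1 (r = 0.985, ratio 0.789). Whether reads are split between these IDs was not tested, so these levels may be uncertain too. The fits were also run on simulated data with independent normal noise, from which no conclusion is drawn here. For the fits by month and of the change, the simulation held no tree effect. It could therefore not test how libraries of the same tree depend on each other. The genes, lists and comparisons were chosen with earlier results of these data known.

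Alternatives covered the pseudocount, the filter, the scaling, moderation, blocks, library numbers, dates and each tree left out. With a tree left out, the lone tree of that site is assumed to vary like the others. The replicate numbers name separate trees, so they do not pair trees across sites: deviations of same-numbered trees correlated across genes with r = -0.248 (Tsukuba with Fukuoka), 0.0725 (Hokkaido with Fukuoka) and 0.183 (Hokkaido with Tsukuba). All replicate 1 libraries and Fukuoka replicate 2 have library numbers under 8000, and Tsukuba and Hokkaido replicate 2 have numbers over 8000. No ID could be matched to a gene name, so the gene lists and markers were not used.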

Additional observations from a re-analysis of the deposited data

Results flagged for a closer look

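The June to August change of bud transcripts differed between sites in 2941 genes for Hokkaido minus Fukuoka, 3434 genes for Hokkaido minus Tsukuba and 24 genes for Tsukuba minus Fukuoka, by limma on within-tree changes. The difference in change between Hokkaido and Tsukuba was itself past the threshold for CYE_r3.1SPE1_g040490.1 (5.66) and CYE_r3.1SPA1_g039870.1 (5.60), which had the higher change in Hokkaido, and for CYE_r3.1SPE2_g027840.1 (-7.19) and CYE_r3.1SPA2_g034430.1 (-7.08), which had the lower. These genes were named for this difference. Without Tsukuba replicate 1 or without Tsukuba replicate 2, the calls of CYE_r3.1SPA1_g039870.1 and CYE_r3.1SPA2_g034430.1 were lost, with differences of 5.61 and 5.60 for the first gene and -7.33 and -6.84 for the second.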

How the results depend on the processing

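Of 213 alternative counts, 144 stayed within 1.5 times the main count and 69 moved, and no named gene changed direction. The genes named for Hokkaido minus Fukuoka and for Hokkaido minus Tsukuba were called under all 21 alternatives. Of those named for Tsukuba minus Fukuoka, CYE_r3.1SPA0_g083470.1 lost its call under 6, CYE_r3.1SPA4_g020260.1 under 7, CYE_r3.1SPA7_g005190.1 under 11 and CYE_r3.1SPE3_g011760.1 under 5. For Hokkaido minus Fukuoka, a pseudocount of 5 gave 1118 calls and adjusted p alone 10398. At a pseudocount of 0.1, 1634 were higher and 1589 lower. For Hokkaido minus Tsukuba, a pseudocount of 5 gave 788, a mean TPM of at least 5 gave 1339 and adjusted p alone 5821. For Tsukuba minus Fukuoka, pseudocounts of 0.1 and 5 gave 494 and 486, no filter 0 (13517 genes at an unadjusted limma p under 0.05), the library series as a covariate 1498, library numbers under 8000 only 2118, the dates without June 227, without July 165 and without August 1914, and adjusted p alone 2503. With Fukuoka buds of 29 August, the change for Tsukuba minus Fukuoka gave 1046. In leaves, Hokkaido minus Tsukuba without June leaves, an alternative chosen after seeing the data, gave 1379. Leaves of Tsukuba minus Fukuoka with equal library medians gave 186, of which 109 were higher and 77 lower, beside 135 and 173. The causes of these moves were not tested.

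Leaving out 1 tree at a time gave 996 to 2426 calls for Hokkaido minus Fukuoka, 1612 to 2225 for Hokkaido minus Tsukuba and 0 to 1596 for Tsukuba minus Fukuoka over summer. In June the ranges for these comparisons, in the same order, were 459 to 2897, 2106 to 3127 and 176 to 1429, in July 2713 to 4456, 1079 to 1904 and 256 to 4190, and in August 1389 to 2767, 1561 to 2751 and 4 to 13. For the difference in change they were 47 to 1280, 35 to 2393 and 0 to 36, and in leaves 1036 to 3044, 1845 to 3780 and 0 to 594. June to August changes ranged from 1131 to 3592 in Hokkaido, 2941 to 4410 in Tsukuba and 1054 to 3059 in Fukuoka.

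With the replicate number as a block, 2349 genes were called for Hokkaido minus Fukuoka, 845 for Tsukuba minus Fukuoka and 2025 for Hokkaido minus Tsukuba. Among counts, no block moved one by over 1.5 times, and among named genes the block ended the call of CYE_r3.1SPA7_g005190.1 alone. Depth is unknown, so no lower limit of detection could be given.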

Other observations

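Trees of 1 site also differed from each other. On the mean over summer, 449 genes differed by at least 1 between the Hokkaido trees, 343 between the Tsukuba trees and 336 between the Fukuoka trees. Of the tested genes, 49 did so on all 3 dates in the same direction in Hokkaido, 33 in Tsukuba and 54 in Fukuoka. With 1 library per tree and date, these differences have no replicate beyond the dates.

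For Tsukuba against Fukuoka, 42 of all 39360 genes tested in summer were higher in Tsukuba by at least 1 in each of the 7 months from September to March. Of these, 2 were among the 752 genes called lower in Tsukuba in summer, and 0 were among the 205 called higher. These are counts without a test.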
